A study of Rattus norvegicus with 19 samples.

Results

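Of 13 rat mammary carcinomas, the 6 with the most progesterone receptor (Pgr) RNA were compared with the 6 with the least, across all other genes, and the carcinoma with the median Pgr value was left out. These 12 carcinomas are part of a set of 19 samples that also holds 6 normal mammary glands. RNA of each sample was measured on 1 single-colour Agilent array. All samples came from female F1 hybrid rats of Sprague-Dawley and Copenhagen stock. Per the labels, some rats were given a whole-body gamma-ray dose of 4 Gy when they were 7 weeks old and others none, and every carcinoma is described as induced by radiation. The labels do not say whether the normal glands came from irradiated rats. They give no receptor status, hormone treatment, histology or age at sampling for any tumour. Each sample is described as a gland or a carcinoma, and nothing states that each came from a different rat, so p-values measure only the spread between these samples.

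The progesterone receptor is a nuclear receptor that binds its hormone and then acts as a transcription factor. In the mammary gland it is made by a subset of luminal cells, the hormone-sensing cells, largely under the control of the oestrogen receptor. These cells pass the hormone signal to their neighbours through secreted factors such as RANK ligand (Tnfsf11), Wnt4 and amphiregulin (Areg), which act on basal cells and on hormone receptor-negative luminal cells.

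The values below are log2 intensities minus the 75th percentile of their array, so that 0 marks a spot as bright as that percentile. The carcinomas were chosen by their Pgr values on these same arrays, so the Pgr values describe the choice and carry no test. In the Pgr-high group Pgr was 0.15 in carcinoma 6, -0.74 in carcinoma 3, -1.20 in carcinoma 1, -1.79 in carcinoma 4, -1.93 in carcinoma 11 and -2.09 in carcinoma 8. In the Pgr-low group it was -2.42 in carcinoma 9, -3.30 in carcinoma 10, -3.46 in carcinoma 12, -3.66 in carcinoma 5, -4.34 in carcinoma 2 and -5.99 in carcinoma 7. The carcinoma left out, carcinoma 13, had -2.32, which is 0.23 below the last Pgr-high carcinoma and 0.10 above the first Pgr-low carcinoma.

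The Pgr values therefore ran without a break at the boundary, and the extremes lay far apart. The group means were -1.27 ± 0.86 (SD, n = 6) and -3.86 ± 1.21 (SD, n = 6). In normal glands Pgr ran from -5.06 to -3.39 with a median of -4.50. All 6 Pgr-high values lay above every normal gland value, and the Pgr-low values spanned the normal range. The single Pgr probe was well above background on 6 Pgr-high arrays, on 5 Pgr-low arrays (not on that of carcinoma 7) and on 4 normal gland arrays. The order of carcinomas moved with the processing. At the boundary, carcinomas 9 and 13 changed places after normexp background correction, and carcinomas 8 and 13 did so after quantile normalization. After normexp, carcinoma 7 also rose from the lowest place to above carcinomas 12, 5 and 2. The difference in mean Pgr between the groups was then 1.64, against 2.595 without that correction.

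**Figure D1:**
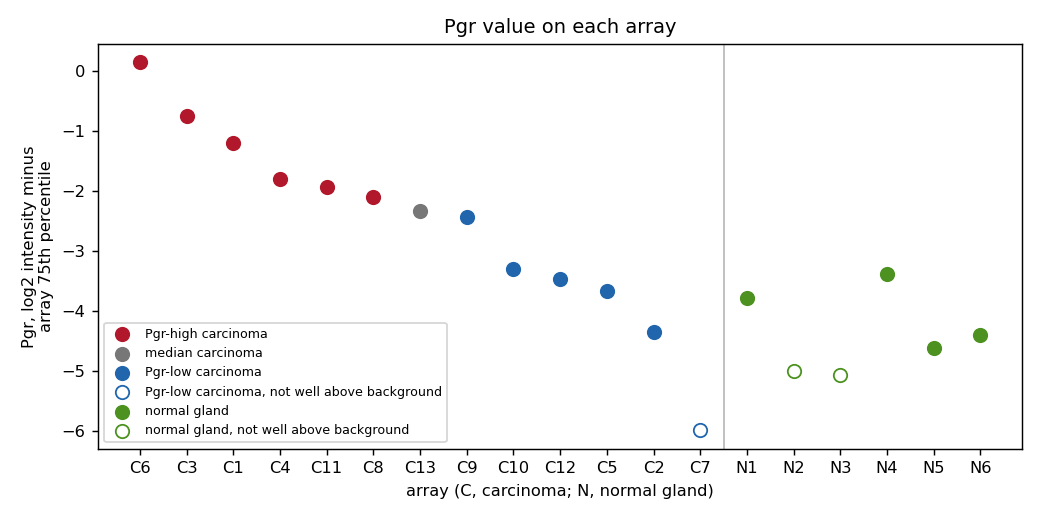
Pgr on each of 19 arrays, as log2 intensity minus the array's 75th percentile, with carcinomas in falling order and normal glands at the right. Filled points are well above background and open points are not; carcinoma values run from 0.15 to -5.99 with gaps of only 0.23 and 0.10 around the median carcinoma.

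Array brightness and epithelial content did not differ between the groups beyond the spread of the arrays. The 75th percentile of intensity was 875 to 1428 on Pgr-high arrays and 485 to 1269 on Pgr-low arrays, a mean difference of 0.21 on the log2 scale (2-sided exact permutation test over 924 splits, p = 0.429, adjusted over 3 measures 0.643, smallest p possible 0.00216). Spots well above background made up 78.7 to 84.2% and 62.3 to 82.9% of all spots (exact permutation p = 0.338, adjusted 0.643). Carcinoma 7, with the lowest Pgr, also had the dimmest carcinoma array, and without it the Pgr-low arrays ran from 866 to 1269. A score over 18 epithelial genes differed by 0.09 between groups (exact permutation p = 0.695, adjusted 0.695). It was -0.83 in carcinoma 2 and -0.44 in carcinoma 7 of the Pgr-low group, and -0.47 in carcinoma 11 of the Pgr-high group. Each of the 3 slides held 2 carcinomas of each group.

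No gene reached an adjusted p under 0.05 between Pgr-high and Pgr-low carcinomas in limma (0 of 12550 genes, 0.0%), and the smallest adjusted p was 0.89. At an unadjusted p under 0.05 there were 480 genes (3.82%), of which 258 were higher (2.06%) and 222 lower (1.77%) in Pgr-high tumours. With the groups kept as drawn above, quantile normalization gave 310 higher and 165 lower, and normexp 189 higher and 229 lower. The groups were not redrawn by the order of Pgr on those scales. The 9348 genes well above background on all 12 arrays gave 178 higher and 211 lower (4.16% together). Number-coded tumours alone gave 658 lower of 1124. The median standard error of a log2 difference was 0.33. None of the genes named from this comparison passed the adjusted threshold, so the following are differences with their errors and no calls. In bulk tissue, fewer cells of a type and less RNA per cell cannot be told apart.

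Ligands of the Wnt and EGF receptor systems stood among the 12 genes of lowest p that were higher in Pgr-high carcinomas. Rspo3, a secreted R-spondin that amplifies Wnt signalling, ranged from -3.82 to 0.12 (median -0.39) in Pgr-high carcinomas and from -6.31 to -4.36 (median -4.68) in Pgr-low ones. The groups did not overlap, and 4 Pgr-high tumours stood at -0.63 or above while carcinoma 4 and carcinoma 8 had -3.82 and -2.57. The log2 difference was 3.71 ± 0.65 (SE; limma adjusted p = 0.89), and it was 4.51, 2.71 and 3.90 within the 3 slides. Among the fits of the split that left out 1 carcinoma, Rspo3 alone passed, with an adjusted p of 0.0254 without carcinoma 4; over all its alternatives the adjusted p ran from 0.0254 to 1.0.

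Betacellulin (Btc), a ligand of the EGF receptor, ranged from -5.20 to -3.75 (median -4.28) in Pgr-high tumours and from -7.25 to -5.04 (median -5.87) in Pgr-low tumours. It was well above background on 6 and 3 arrays, and the groups overlapped slightly. Its difference was 1.71 ± 0.40 (SE). Norrin (Ndp), which activates the Wnt receptor Frizzled-4, differed by 2.53 ± 0.62 (SE) with values of -4.60 to -0.97 and -6.46 to -3.54. 

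Hpgd, the enzyme that inactivates prostaglandins, had the largest difference among these 12 genes, 4.43 ± 0.89 (SE). Its values ran from -1.86 to 4.44 (median 1.08) in Pgr-high carcinomas and from -4.58 to -1.45 (median -3.28) in Pgr-low carcinomas. The groups overlapped only through carcinoma 8 and carcinoma 2, and normal glands lay between -0.38 and 2.86, level with the Pgr-high tumours. Cdo1, a cysteine dioxygenase, differed by 3.71 ± 0.91 (SE), with -1.77 to 1.20 against -6.38 to -0.09.

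The other genes of this group included a pair with ADP-ribosylation and ubiquitin roles. Parp14, an ADP-ribosyltransferase, was 3.397 to 3.82 (median 3.60) in Pgr-high tumours and 2.24 to 3.06 (median 2.88) in Pgr-low tumours. All 6 Pgr-high values exceeded all 6 Pgr-low values, and the difference was 0.87 ± 0.18 (SE), with 0.82 from a further probe. Its neighbour Dtx3l, a ubiquitin ligase that partners the ADP-ribosyltransferase Parp9, was -2.48 to -1.58 against -3.26 to -2.59, with no overlap and a difference of 0.94 ± 0.21 (SE). Parp9, the next gene along, was named after its values were seen and differed by 0.71 ± 0.28 (SE). In the GRCr8 annotation 0 protein-coding genes lie between these neighbours.

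Parp14 and Dtx3l are also the only ones among the leading higher genes with a promoter in the RefSeq table to hold the interferon element core, GAAANNGAA on either strand, shown in capitals below. Each sequence covers 250 bases before to 50 after the gene's start, 5′ to 3′, on the plus strand of GRCr8, at chr11:78407884-78408183 for Parp14 and chr11:78319975-78320274 for Dtx3l.
Parp14: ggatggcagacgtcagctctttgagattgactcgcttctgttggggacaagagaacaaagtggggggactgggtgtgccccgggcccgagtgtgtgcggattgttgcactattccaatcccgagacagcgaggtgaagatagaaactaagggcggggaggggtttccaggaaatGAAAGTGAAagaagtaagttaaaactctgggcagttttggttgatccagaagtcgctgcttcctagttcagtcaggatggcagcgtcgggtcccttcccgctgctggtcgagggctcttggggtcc
Dtx3l: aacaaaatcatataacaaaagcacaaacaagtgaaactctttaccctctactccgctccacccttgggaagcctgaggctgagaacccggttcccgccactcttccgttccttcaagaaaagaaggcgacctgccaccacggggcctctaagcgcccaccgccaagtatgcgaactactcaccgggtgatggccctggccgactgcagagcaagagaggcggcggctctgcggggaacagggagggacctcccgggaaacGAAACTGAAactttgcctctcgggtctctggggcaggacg
This motif was in 2 of 9 leading higher genes, in 0 of 9 leading lower genes and in 9.5% of 27457 promoters of 300 bases. It was in 9 of 13 interferon-response genes with a promoter in the table. The short steroid receptor motif AGAACA, searched on both strands, was in 6 of 9 higher and 0 of 9 lower genes, against 20.1% of all promoters. A match describes these letters and is not a binding site.

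Of the remaining higher genes, Chst1, a sulfotransferase of keratan sulfate, was 4.55 to 6.04 against 3.27 to 4.48 with no overlap, a difference of 1.35 ± 0.29 (SE). Ddah2, of the dimethylargininase family, was 3.18 to 3.91 against 1.93 to 3.02, also with no overlap. Crabp2, which binds retinoic acid, was 2.86 to 3.61 against 0.71 to 3.12. Mfap3l and Pcdhb5 (a protocadherin) differed by 1.46 and 1.13. In all, 9 genes (0.0717%) had every Pgr-high value above every Pgr-low value, and 8 (0.0637%) had the reverse. Carcinoma 13, left out, had 2.69 for Ddah2, 3.47 for Chst1, -4.15 for Mfap3l and -3.24 for Dtx3l. These values and its Rspo3 value lay within the Pgr-low ranges, so counting it as Pgr-high would make these genes overlap. For Parp14 it had 3.45, within the Pgr-high range. Among lower genes it had 3.36 for Isyna1 and -4.43 for Slc27a2, on the Pgr-low side, and 1.26 for Timm13, on the Pgr-high side.

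Among the 12 genes of lowest p that were lower in Pgr-high tumours, Isyna1, which makes inositol phosphate, was 0.72 to 2.25 (median 1.69) in Pgr-high tumours and 2.41 to 2.95 (median 2.57) in Pgr-low tumours. The groups did not overlap, and the difference was -1.07 ± 0.24 (SE). Slc27a2, a fatty acid transporter, was -8.34 to -6.34 against -6.15 to -3.73, a difference of -2.07 ± 0.48 (SE). It was well above background on 1 Pgr-high and 5 Pgr-low arrays, so most Pgr-high values lay near background and the size of the difference and the lack of overlap rest on them.

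Ldha, lactate dehydrogenase A, was 4.77 to 5.50 (median 5.06) in Pgr-high and 5.37 to 7.03 (median 5.92) in Pgr-low carcinomas. The groups overlapped at their edges, and the difference was -1.01 ± 0.26 (SE), with -1.07, -0.67 and -1.28 within slides. Fabp4, a fatty acid-binding protein abundant in fat cells, was -4.89 to -3.22 against -3.77 to -0.55 and 4.12 to 5.30 in normal glands, a carcinoma difference of -2.25 ± 0.56 (SE). In the adipocyte list as a whole, 6 of 16 tested genes were above 0, against 48.5% of all genes, and the median was -0.12.

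Nans, which makes sialic acid, differed by -0.92 ± 0.24 (SE). Timm13 and Mtfp1, both mitochondrial proteins, differed by -0.53 and -0.85. Timm13 had no overlap between groups, with 1.48 to 1.85 against 1.96 to 2.47. Unc13a, Jmjd6 and Metrn differed by -1.41, -0.88 and -0.99. Unc13a was well above background on only 3 Pgr-high and 5 Pgr-low arrays, so the size of its difference rests partly on values near background.

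**Figure D2:**
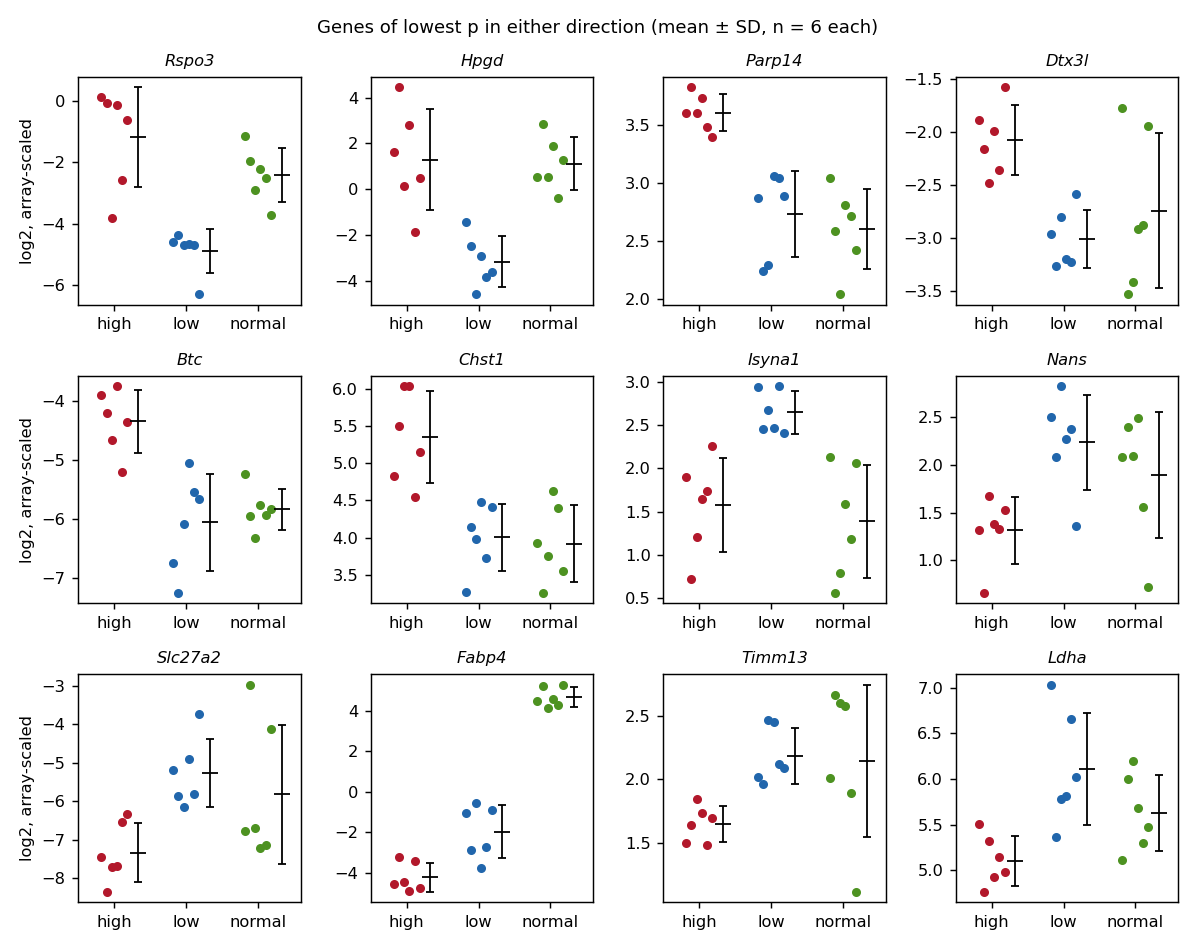
Values of 12 genes among those of lowest p, as log2 intensity minus the array's 75th percentile, in 6 Pgr-high carcinomas, 6 Pgr-low carcinomas and 6 normal glands, with mean and SD at the right of each group. The groups do not overlap for Rspo3, Parp14, Dtx3l, Chst1, Isyna1, Slc27a2 and Timm13, and 0 of these genes passed the adjusted threshold.

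Hormone receptors and their partners were next compared, since Pgr is itself a target of the oestrogen receptor. Esr1, the oestrogen receptor alpha gene, was dim: it was well above background on 5 Pgr-high, 2 Pgr-low and 0 normal gland arrays. It ranged from -6.91 to -4.94 (median -5.53) in Pgr-high tumours and from -8.39 to -5.56 (median -6.35) in Pgr-low tumours. The groups overlapped, and the difference was 1.08 ± 0.54 (SE; limma unadjusted p = 0.0688, adjusted 0.999).

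Nr3c2, the mineralocorticoid receptor, named after its values were seen, differed by 1.32 ± 0.59 (SE) but by 0.066 on a further probe. Nr3c1, the glucocorticoid receptor, differed by -0.09 ± 0.34 (SE), and by 0.062 with array brightness as a covariate.

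Foxa1, a pioneer factor for the oestrogen receptor, differed by 0.69 ± 0.91 (SE) on the brighter probe, and by 0.12 without carcinoma 7. On the other probe it differed by 1.42 ± 0.47 (SE; limma over every probe, unadjusted p = 0.009, adjusted 0.9998). Its medians on the brighter probe were -0.91 in Pgr-high and -0.53 in Pgr-low tumours. Gata3, a regulator of luminal identity, differed by 0.67 ± 0.58 (SE). Prlr, the prolactin receptor, was -0.97 to 1.14 (median -0.33) against -4.43 to 0.91 (median -0.85), a difference of 1.10 ± 0.81 (SE). Of 17 tested hormone-sensing luminal genes, 1 was higher and 0 lower at an unadjusted p under 0.05 (2.06% and 1.77% of all genes). When the Pgr value itself was fitted, as given below, 7 of the 17 rose and 0 fell at that level. Of all genes, 4.61% rose and 3.54% fell. Of the 17, 14 had a difference above 0, against 48.5% of all genes, and 3 were below 0. Among those 3, Cited1 differed by -0.18 ± 1.58 (SE), with medians of 4.34 in Pgr-high and 6.10 in Pgr-low tumours. Stc2 differed by -0.67 ± 0.65 (SE). The list's median difference was 0.65, and it was 0.30 without carcinoma 2 and 0.18 without carcinoma 7. Within slides it was 0.64, 1.03 and -0.23. Array scores of this list ran from -0.41 to 0.73 (median 0.37) in Pgr-high and from -2.39 to 0.85 (median 0.38) in Pgr-low tumours. Carcinomas 2 and 7, of lowest Pgr before normexp correction, had -1.86 and -2.39.

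Among known mediators of progesterone, Wnt4 was 0.25 to 2.28 (median 1.57) in Pgr-high tumours and -3.89 to 1.63 (median 0.15) in Pgr-low tumours. Carcinomas 9 and 12 of the Pgr-low group stood near the Pgr-high median, and the difference was 1.59 ± 0.79 (SE; limma unadjusted p = 0.0648, adjusted 0.999). Without carcinoma 7 it was 0.85. Areg, the EGF receptor ligand amphiregulin, was 1.52 to 5.61 (median 3.42) against -4.42 to 4.54 (median 1.60), a difference of 2.91 ± 1.34 (SE; limma unadjusted p = 0.0486). The within-slide differences of Areg were 5.22, 2.75 and 0.77.

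Btc, Areg and Ereg (epiregulin, another EGF receptor ligand, named after its values were seen) are neighbours, with 0 protein-coding genes between them in the GRCr8 annotation. Ereg differed by 2.67 ± 1.18 (SE), so all 3 had differences above 0. The receptors did not follow as a group: Egfr differed by 0.81 ± 0.44 (SE), Erbb2 by 0.16 ± 0.25, Erbb3 by 0.03 ± 0.27 and Erbb4 by -0.03 ± 0.75. The sign for Erbb3 turned under normexp (-0.038).

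Tnfsf11, which encodes RANK ligand, was not tested, being well above background on 1 Pgr-high, 0 Pgr-low and 3 normal gland arrays. Its decoy receptor Tnfrsf11b (osteoprotegerin) differed by 0.98 ± 0.42 (SE). Calca (calcitonin) differed by 0.04 ± 0.48 and changed sign under normexp (-0.20) and quantile normalization (-0.083). Of the 25 progesterone targets and mediators listed, 23 were tested, 3 were higher and 0 lower at an unadjusted p under 0.05 (2.06% and 1.77% of all genes), and 19 had a difference above 0 (48.5% of all genes). The median difference of this list was 0.46, against -0.01 for all genes, and it was 0.41 to 0.56 when 1 carcinoma was left out. It was 0.79, 0.58 and 0.066 within slides and 0.26 after normexp. Against the Pgr value itself, 5 of the 23 rose and 0 fell at an unadjusted p under 0.05 (4.61% and 3.54% of all genes).

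Stat5a, the transcription factor of prolactin signalling and a partner of the progesterone receptor, was 2.24 to 4.70 (median 3.88) against 1.41 to 3.32 (median 2.55). The groups overlapped, and the difference was 1.35 ± 0.44 (SE; limma unadjusted p = 0.00904, adjusted 0.999), with 2.37, 1.24 and 0.43 within slides. Stat5b, its paralogue, named after its values were seen, differed by 0.64 ± 0.28 (SE). Elf5, the alveolar regulator downstream of prolactin, differed by 0.70 ± 1.33. The milk genes did not separate the groups. Csn2, beta-casein, ranged from -7.38 to 8.44 in Pgr-high tumours and from -8.59 to 9.10 in Pgr-low tumours, and Wap, whey acidic protein, spanned -5.48 to 6.05 and -6.61 to 8.28.

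**Figure D3:**
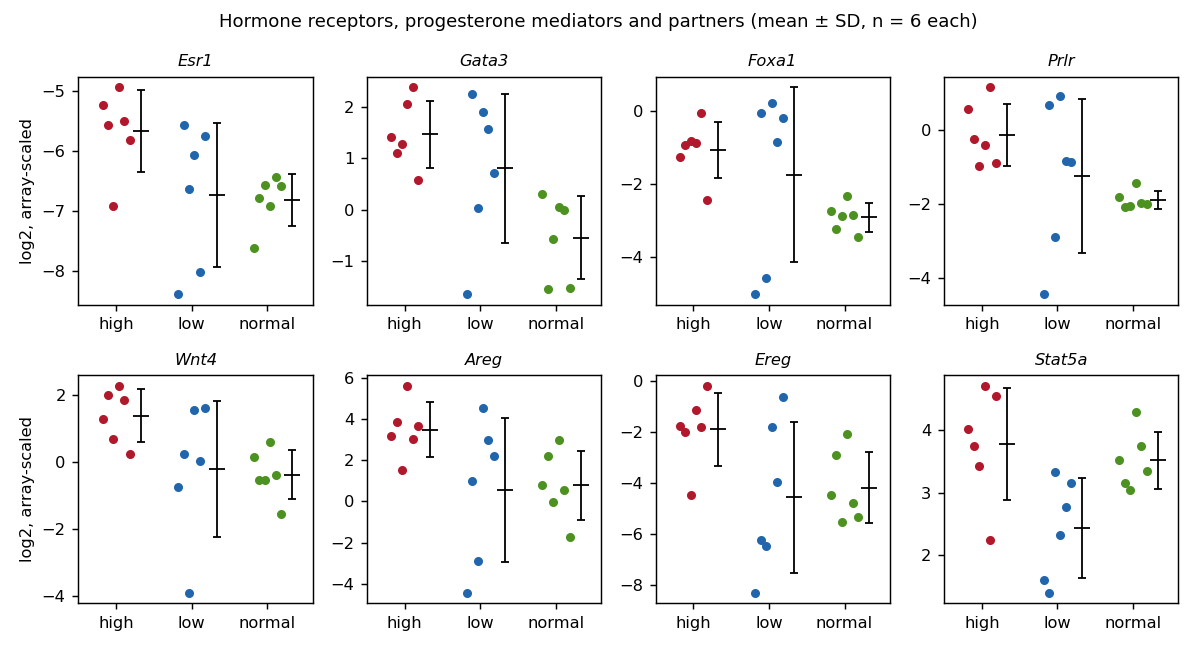
Esr1, Gata3, Foxa1, Prlr, Wnt4, Areg, Ereg and Stat5a as log2 intensity minus the array's 75th percentile, in 6 Pgr-high carcinomas, 6 Pgr-low carcinomas and 6 normal glands, with mean and SD. Most Pgr-low groups are wide, as for Wnt4 (-3.89 to 1.63) and Areg (-4.42 to 4.54), and overlap the Pgr-high group in all 8 genes.

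Wnt pathway genes other than Rspo3 and Wnt4 were also considered. Against the Pgr value itself, 5 of 27 tested genes rose and 1 fell at an unadjusted p under 0.05 (4.61% and 3.54% of all genes). Between the groups, of 37 listed and 27 tested, 4 were higher and 0 lower at that level, against 2.06% and 1.77% of all genes. The 4 were Rspo3, Axin2 (a negative regulator and target of the pathway), Wnt11 and Fzd1 (a receptor), the last 3 named after their values were seen. Axin2 was -4.65 to -2.03 against -6.40 to -3.56, a difference of 1.32 ± 0.51 (SE). The list's median difference was 0.21, with 19 of 27 above 0, against 48.5% of all genes. It was 0.13, 0.39, 0.38, 0.47, 0.13 and 0.10 without carcinoma 1, 2, 3, 5, 7 and 9, and -0.0054 after normexp. Other progesterone receptor partners and coregulators showed a median of -0.04 over 19 tested genes. The oestrogen receptor and its targets had 14 of 23 above 0, against 48.5% of all genes, and a median of 0.08.

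No keratin of the main epithelial layers passed the adjusted threshold, and the values of all 4 overlapped between the groups. The luminal keratins Krt8 and Krt18 differed by -0.75 ± 0.48 (SE) and -0.23 ± 0.45, and the basal keratins Krt5 and Krt14 by 1.03 ± 1.09 and 0.81 ± 0.95. The basal values turned to -0.12 and -0.14 without carcinoma 7. All 6 Pgr-high tumours lay between 0.88 and 3.29 for Krt5, and carcinoma 7 had -4.83.

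Cell-cycle genes lay on the lower side in Pgr-high carcinomas. All 52 tested genes of this list had a difference below 0, while 48.5% of all genes lay above 0. The list's median was -0.60, and 2 genes passed an unadjusted p under 0.05, against 1.77% of all genes lower. Against the Pgr value itself, 0 of the 52 passed that level. The median was -0.96 without carcinoma 12. Cdk1, the mitotic kinase, was -0.15 to 2.96 against 0.25 to 3.12, a difference of -0.87 ± 0.53 (SE). The list median was -1.33 and -0.70 on 2 slides and 0.19 on the other. The single array scores of this list ran from -1.21 to 0.65 in Pgr-high and from -1.11 to 1.30 in Pgr-low tumours and so overlapped.

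Glycolysis and hypoxia genes also lay lower, with 20 of 22 below 0 and a median of -0.73. At an unadjusted p under 0.05, 6 were lower and 0 higher, against 1.77% and 2.06% of all genes. With the Pgr value itself, 3 of the 22 fell and 0 rose, against 3.54% and 4.61% of all genes. The median was -0.97, -0.19 and -0.89 within slides. Array scores overlapped, from -1.03 to -0.03 in Pgr-high and from -0.34 to 1.53 in Pgr-low tumours. The highest Pgr-low scores were 1.53 in carcinoma 2 and 0.91 in carcinoma 10. Pgk1 and Gapdh, both of glycolysis and named after their values were seen, differed by -0.96 ± 0.31 (SE) and -0.58 ± 0.21. Interferon-response genes lay higher, with 19 of 19 above 0 and a median of 0.70, against 48.5% of all genes above 0. At an unadjusted p under 0.05, 1 was higher and 0 lower, against 2.06% and 1.77% of all genes. In the fit of the Pgr value itself, given below, 0 of the 19 passed that level. Array scores overlapped, from -0.96 to 1.14 in Pgr-high and from -1.05 to 0.81 in Pgr-low tumours. Carcinoma 6, with the highest Pgr, had -0.96. The interferon median was 1.00, 0.63 and 0.10 within slides, 0.46 without carcinoma 4 and 0.46 without carcinoma 7.

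Among marker lists of other cell types, those of macrophages, neutrophils and fibroblasts lay to the lower side in Pgr-high tumours, and their part in the other differences was not tested. Mast cell and Schwann cell genes had medians of 0.43 and 0.37, and T and NK cell and endothelial genes of -0.06 and -0.02. Macrophage genes had 20 of 22 below 0 with a median of -0.66, and their array scores ran from -1.29 to 1.17 in Pgr-high and from -0.49 to 0.94 in Pgr-low tumours. The macrophage median was 0.11, -1.08 and -0.58 within slides, and -0.43 without carcinoma 6 and -0.40 without carcinoma 11. Neutrophil genes had 9 of 9 below 0 with a median of -0.76, and scores of -1.62 to 1.36 and -1.08 to 2.07, and the median was -1.22 without carcinoma 8. Fibroblast and collagen genes had 17 of 19 below 0 with a median of -0.63, and scores of -2.21 to 1.53 and -1.11 to 1.56. Their median was -0.43, -0.96 and 0.24 within slides. It was -0.37, -0.11, -0.41 and -0.26 without carcinoma 2, 4, 5 and 6. At an unadjusted p under 0.05, 1 of 22 macrophage, 2 of 9 neutrophil and 1 of 19 fibroblast genes were lower and 0 higher. Of all genes, 1.77% were lower and 2.06% higher. Of the other 4 lists, 1 of 10 Schwann cell genes was higher and 0 genes passed in the rest. With the Pgr value itself, 6 of 22 macrophage, 2 of 9 neutrophil and 2 of 19 fibroblast genes fell at that level. None of these rose, against 3.54% of all genes falling and 4.61% rising. Of all genes, 48.5% had a difference above 0.

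**Figure D4:**
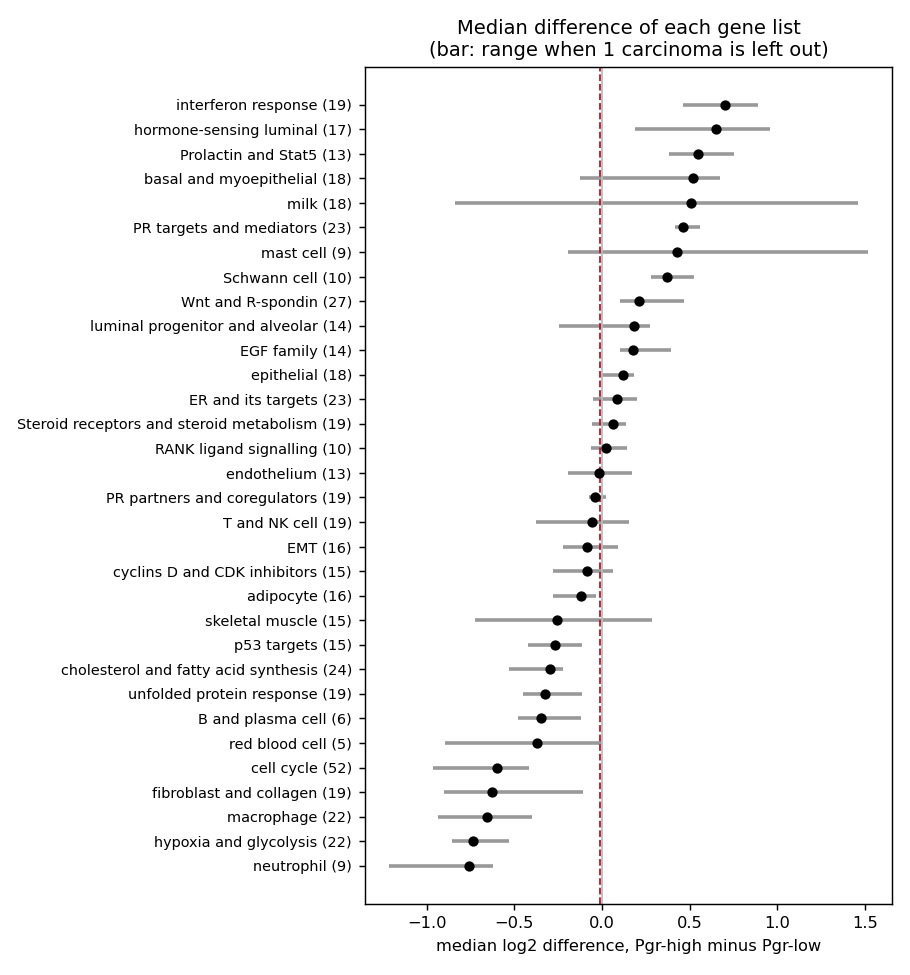
Median log2 difference, Pgr-high minus Pgr-low, of 32 gene lists, with the number of tested genes in brackets and a bar for the range when 1 carcinoma is left out. The dashed line marks the median over all 12550 genes (-0.01); the interferon, hormone-sensing luminal and prolactin lists stand at the top, and neutrophil and glycolysis lists at the bottom.

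The Pgr value was then used as a continuous term over all 13 carcinomas, which uses carcinoma 13 and the distances within the groups. In limma 5 genes (0.0398%) passed an adjusted p of 0.05, all rising with Pgr, and 1022 genes (8.14%) had an unadjusted p under 0.05, 578 with a positive slope (4.61%) and 444 with a negative one (3.54%). Rev3l, the catalytic subunit of DNA polymerase zeta, rose by 0.63 ± 0.08 (SE) per log2 unit of Pgr (adjusted p = 0.0116). It was 1.15 in carcinoma 6 and 0.70 in carcinoma 3, the tumours of highest Pgr. It was -2.31 in carcinoma 2 and -2.75 in carcinoma 7, the tumours of lowest Pgr before normexp correction. A further probe gave 1.66 for the difference between the groups, beside 1.61 ± 0.43 (SE).

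The other 4 were Rnf180 (a ubiquitin ligase), Mycbpap, Crym (crystallin mu, which binds thyroid hormone) and Traf3ip2 (an adaptor of interleukin-17 signalling). Rnf180 rose by 1.16 ± 0.17 (SE; adjusted p = 0.0381) and Mycbpap by 1.18 ± 0.18 (SE; 0.0388). Crym rose by 0.95 ± 0.15 (SE; 0.0388) and Traf3ip2 by 0.84 ± 0.13 (SE; 0.0388). Traf3ip2 and Rev3l are neighbours, with 0 protein-coding genes between them. Carcinoma 7 stood apart in Crym (-6.04, the other Pgr-low tumours -1.90 to -0.71) and in Traf3ip2 (-1.89, the others 1.40 to 2.82). Without it the slopes of these genes were 0.63 and 0.54. The probes of Rnf180, Mycbpap and Crym were well above background on 5 of the 6 Pgr-low arrays.

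These calls depended on the samples at the ends. No gene passed without carcinoma 2, 3, 6 or 7, and Rev3l passed in 9 of the 13 fits that left 1 carcinoma out, with slopes of 0.61 to 0.68. Without carcinoma 7, the Rev3l slope was 0.68 with an adjusted p of 0.175. After the 5, Aqp5, Hpgd, Parp14 and Wnt4 followed with an adjusted p of 0.0813 each. Their slopes were 0.78, 1.42, 0.28 and 0.84 per log2 unit of Pgr. Aqp5, a water channel of secretory epithelia, was named after its values were seen.

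**Figure D5:**
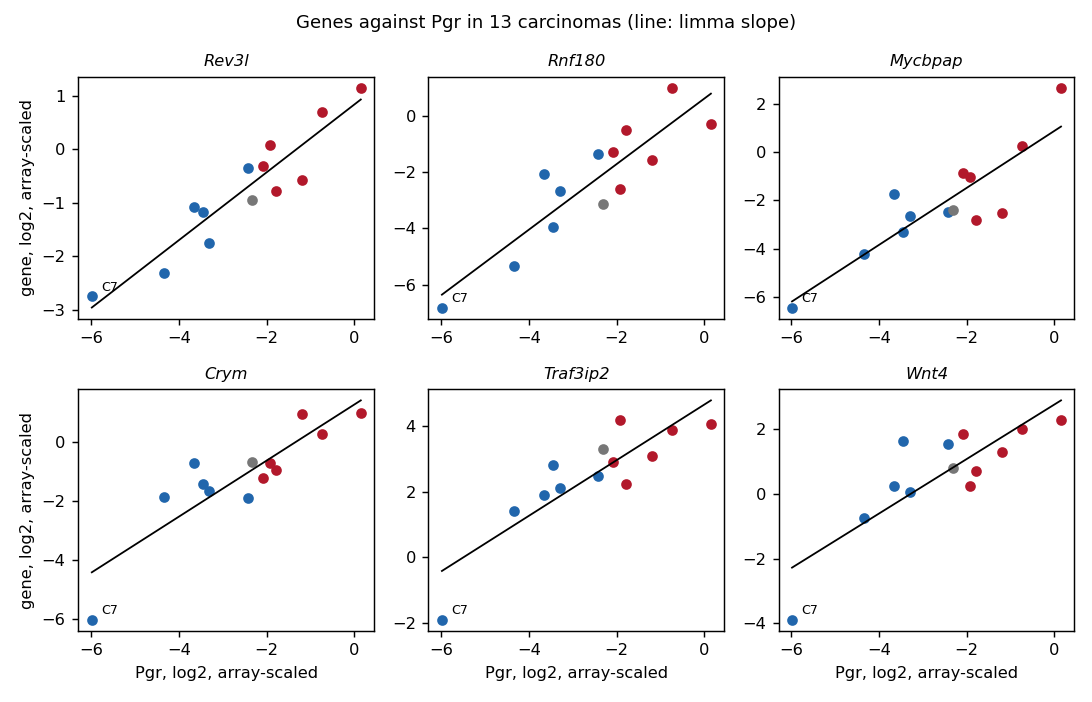
Rev3l, Rnf180, Mycbpap, Crym, Traf3ip2 and Wnt4 against Pgr in 13 carcinomas, both as log2 intensity minus the array's 75th percentile, with Pgr-high tumours red, Pgr-low blue, the median tumour grey and the limma slope as a line. The first 5 passed an adjusted p of 0.05 and Wnt4 had 0.0813; carcinoma 7 lies far below the others in Crym and Traf3ip2.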

How the data were processed

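RNA of 6 normal glands and 13 carcinomas was measured on Agilent arrays. The scanner software was Agilent Feature Extraction 10.7.3.1, per the submitters' processing notes. Per the file headers, the deposited scanner files hold background-subtracted spot intensity with flags. The authors also deposited a log2 table. Read from its values, each array is at about 0 at its 75th percentile, and it differs from the scanner values by a shift of 0.43 to 0.54. The labels do not state this step.

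Control spots were removed (58717 spots, 30367 probes left), 403 to 1069 outlier spots per array were treated as missing, and 0 were saturated. Each array's 75th percentile was subtracted from its log2 values. Probes were named by RefSeq accession (18005 probes, 15168 symbols; GRCr8 table, used for names and gene order). The array annotation rests on another assembly. A gene entered where its probe was well above background on at least 6 of the 12 carcinoma arrays, with at least 0.5 of its spots, and by the probe with the highest mean. This gave 12550 genes without Pgr, 46 with a missing value on some arrays, which were fitted on the remaining arrays.

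Differences were tested with limma 3.58.1 (R 4.3.3; lmFit, eBayes with trend), 2-sided, with p-values adjusted over all genes by Benjamini-Hochberg and a threshold of 0.05, and the fits were tested on simulated data. The number of arrays limits the precision. Members and the 32 gene lists (628 symbols, 522 tested) were chosen with earlier results of these data known. Genes named were up to 12 per direction by p, the gene of lowest p of each list, and a standing set of hormone, keratin, milk and receptor genes; Greb1 and Top2a of that set had no probe with a symbol. Some genes that the rule named are not reported here. List scores average the genes of a list after centring each gene. Alternatives covered background correction (normexp, offset 50, on median signals, as mean signals were not used here), normalization, the authors' table, probe filters, slide, scan day and sample code as blocks, covariates, groupings by Pgr and leaving out each carcinoma.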

Additional observations from a re-analysis of the deposited data

Results flagged for a closer look

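In 17 of 231 groups of 6 values (7.36%), 1 carcinoma stood apart from the other 5, and chance marks about 1 group in 20. Of these, 7 were on carcinoma 7, whose array was the dimmest of the carcinomas, and 4 on carcinoma 8. In the Pgr-low group, carcinoma 7 stood low for Crym (-6.04), Krt5 (-4.83), Nr3c2 (-6.73), Pcdhb5 (-6.03) and Traf3ip2 (-1.89). It stood high for Nr3c1 (-1.39) and Sgk1 (1.24), a kinase induced by steroid hormones. Carcinoma 2 stood low for Cldn3 (-0.19), a tight junction protein whose other Pgr-low values were 4.49 to 5.68, and high for P4ha1 (0.65). Carcinoma 12 stood low for Rspo3 (-6.31) and Prom1 (0.41). In the Pgr-high group, carcinoma 8 stood high for the neutrophil genes S100a8 (1.17) and S100a9 (1.87), high for Metrn (-3.43) and low for Pcdhb5 (-4.94). Carcinoma 1 stood high for Gapdh (4.58) and carcinoma 3 low for Nans (0.66).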

How the results depend on the processing

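No paired analysis was possible because the labels do not say whether carcinomas of both groups came from the same rat. Of 29 alternative settings, 27 gave 0 genes past the adjusted threshold, and the exceptions were Pgr as a continuous term (5) and the split without carcinoma 4 (1). After normexp and quantile normalization the split kept the original groups, though carcinomas at the boundary changed places, so a redrawn split was not tested. Leaving out each carcinoma gave 0 to 1 genes for the split and 0 to 11 for the continuous term, with 3, 4, 11, 1, 1, 1, 2, 5 and 8 without carcinomas 1, 4, 5, 8, 9, 10, 11, 12 and 13 and 0 without 2, 3, 6 or 7. Added after the data were seen, the continuous term gave 3 genes with slide as a block, 3 with array brightness, 3 with the sample code as a block, 6 after quantile normalization and 0 after normexp. The fits within single slides, also added then, gave 0 each. At an unadjusted p under 0.05 the 4 highest against the 4 lowest gave 736 genes and number-coded carcinomas alone 1124, against 480. The median of the prolactin list was 0.16 with the continuous term (scaled by the group difference), and that of the Schwann list -0.20 over genes well above background on all 12 arrays. The epithelial score difference was -0.059 without carcinoma 2; left-out fits ran from -0.059 to 0.19. Of 111 named genes, 95 kept their sign under the alternatives to the split, which leave aside the single-slide fits and the left-out continuous fits. Within slides more signs turned, as for Cdk1 (0.41) and Foxa1 (-0.72) on slide 3. Signs turned under the other alternatives for 16, and the causes were not tested. With the continuous term, as slopes again scaled by the group difference, they were -0.20 for Calca, -0.037 for Ccnd1 and 1.22 for Cited1. On that scale they were -0.18 for Csn2, -0.061 for Erbb3, 0.47 for Erbb4 and 0.19 for Krt18. With 4 against 4 they were -0.0074 for Calca, 0.64 for Cited1, 0.086 for Erbb4, 0.29 for Krt18, 0.10 for Krt8 and 1.38 for Wap. In number-coded tumours they were -0.16 for Ccnd1, 0.071 for Cited1, 0.72 for Erbb4, -0.48 for Prom1 and 0.18 for Wap. Normexp gave -0.20 for Calca and -0.038 for Erbb3, quantile normalization -0.083 for Calca and 0.105 for Wap, and keeping outlier spots -0.21 for Calca. With brightness as a covariate Nr3c1 was 0.062 and Wap 0.64, and with the epithelial score Erbb3 was -0.0055 and Wap 0.016. Leaving out 1 carcinoma gave -0.18 to 0.30 for Calca, -0.17 to 0.28 for Ccnd1, -1.34 to 0.46 for Cited1, -1.81 to 2.62 for Csn2, -0.50 to 1.43 for Elf5, -0.033 to 0.26 for Erbb2, -0.13 to 0.18 for Erbb3, -0.45 to 0.47 for Erbb4, -0.14 to 1.26 for Krt14, -0.61 to 0.0031 for Krt18, -0.12 to 1.37 for Krt5, -0.24 to 0.19 for Nr3c1, -0.23 to 0.61 for Prom1, -0.013 to 1.02 for Tbx3 and -1.93 to 1.45 for Wap. Esr1, Btc, Slc27a2, Unc13a and Tnfsf11 were near background on several arrays, where a level has little precision.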

Other observations

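Ccl11 (eotaxin), a chemokine for eosinophils, was -8.75 to -1.34 (median -6.32) in Pgr-high tumours and -4.26 to -0.36 (median -2.28) in Pgr-low tumours, a difference of -3.64 ± 1.09 (SE). It was well above background on 3 and 6 arrays, and the groups overlapped. Ccl7, another chemokine, was -5.57 to -1.54 against -3.38 to -0.24, a difference of -2.29 ± 0.68 (SE). Neither passed the adjusted threshold in limma (adjusted p = 0.999 for both), and both were picked after their values were seen. Both were below their Pgr-low means within each of the 3 slides, by -4.24, -3.91 and -2.76 for Ccl11 and -3.63, -0.99 and -2.26 for Ccl7.

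Bmpr1b, a receptor of bone morphogenetic proteins and the gene of lowest p in the luminal progenitor list, was -3.22 to 0.40 against -6.59 to -0.84, a difference of 2.40 ± 0.90 (SE). That list had 8 of 14 tested genes above 0, against 48.5% of all genes, and a median of 0.18. Mfap5, a microfibril protein of the matrix, differed by -2.69 ± 1.05 (SE), with -4.45 to 2.89 against 0.17 to 3.01. Mast cell genes had array scores from -4.56 to 3.01 in Pgr-high tumours and from -3.23 to 2.85 in Pgr-low tumours. Genes of cholesterol and fatty acid synthesis had a median of -0.30, and those of the unfolded protein response -0.32.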
